A study of Homo sapiens with 4 samples.

Results

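The HOX clusters A to D without HOXB13 were examined as regions of open chromatin in LNCaP cells, a human prostate cancer line. A listed region (peak) was a member where its summit, the position with the most sequenced tags, lay in 1 of 4 windows of hg19. These were chr7:27130000-27250000 for HOXA, chr17:46600000-46720000 for HOXB, chr12:54330000-54450000 for HOXC and chr2:176950000-177060000 for HOXD. The windows held 87 of the 194551 peaks listed with vehicle and 69 of the 163735 peaks listed with GSK2879552. The choice used positions only and no measured value, though it was made with earlier results of these data known. The genes of the 4 clusters counted here were 37, of which 10 belong to HOXA and 9 to each other cluster.

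Open chromatin was measured by ATAC-seq, in which a transposase cuts accessible DNA and leaves sequencing adapters there. One group of LNCaP cells is labelled vehicle and the other GSK2879552, a compound that blocks LSD1 (KDM1A), an enzyme that takes methyl groups off histones. The protocol text names 50 µM of the compound, 4 hours and medium with 5% CSS, and growth in medium with 10% FBS. It is the same for both groups, so the group came from the agent label. Each condition had 2 sequencing lanes, labelled as technical replicates, and 1 peak list to which both lanes point. The comparison therefore rests on 1 library per condition, it has no replicate check, and no test between conditions was possible. Intervals are 95% intervals that cover counting error only, except that of the HOX median log2 ratio, which reflects the spread between regions. The lists hold no expression values, so the label LNCaP was not checked against marker genes. In bulk libraries, fewer cells with an open region and less opening per cell cannot be told apart.

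HOX genes encode homeodomain transcription factors that give cells their identity along the body axis. Within a cluster the genes stand in the order in which they act from head to tail, and the genes of the high-numbered end, such as HOXA13 and HOXD13, shape the limbs and the urogenital tract. Silent HOX clusters are a textbook target of Polycomb repression, and active ones carry histone H3 methylated at lysine 4, a residue from which LSD1 can remove methyl groups. In adult tissues a cell type keeps a part of the clusters active according to where in the body it arose.

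Gene order gives each window its direction. In the RefSeq gene table of GRCh38.p14 the gene at the low-coordinate end was HOXA2 in HOXA, HOXB1 in HOXB, HOXC13 in HOXC and HOXD13 in HOXD. At the high-coordinate end stood HOXA13, HOXB9, HOXC4 and HOXD1. HOXC4, HOXC5 and HOXC6 share a start in that table. No gene positions in hg19 were used here, so peaks are described by position and by the end of the cluster they lie toward, and no peak is assigned to a gene.

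The sequences before the starts of the genes at both ends show what kind of DNA these clusters hold. The RefSeq promoter table has entries for 20 of the 37 genes, with 9 of 10 in HOXA, 1 of 9 in HOXB, 2 of 9 in HOXC and 8 of 9 in HOXD. The 250 bases before the start are printed for both ends of HOXA and HOXD, the clusters where both ends have an entry. They are written 5′ to 3′ on the gene's strand, in GRCh38.p14 coordinates that do not apply to the hg19 peaks, with each CG dinucleotide in capitals.
HOXA2, chr7:27102684-27102933, strand minus: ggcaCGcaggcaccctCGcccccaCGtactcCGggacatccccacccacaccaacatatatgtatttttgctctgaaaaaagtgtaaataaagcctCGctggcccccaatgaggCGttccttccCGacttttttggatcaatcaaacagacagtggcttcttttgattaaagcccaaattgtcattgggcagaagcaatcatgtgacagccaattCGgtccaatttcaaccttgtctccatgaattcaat
HOXA13, chr7:27200092-27200341, strand minus: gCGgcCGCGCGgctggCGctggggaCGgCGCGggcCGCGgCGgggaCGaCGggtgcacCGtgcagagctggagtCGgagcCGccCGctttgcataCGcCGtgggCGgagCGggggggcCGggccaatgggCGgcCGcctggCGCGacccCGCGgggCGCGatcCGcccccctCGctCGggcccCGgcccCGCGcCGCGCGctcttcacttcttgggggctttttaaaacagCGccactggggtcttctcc
HOXD13, chr2:176092471-176092720, strand plus: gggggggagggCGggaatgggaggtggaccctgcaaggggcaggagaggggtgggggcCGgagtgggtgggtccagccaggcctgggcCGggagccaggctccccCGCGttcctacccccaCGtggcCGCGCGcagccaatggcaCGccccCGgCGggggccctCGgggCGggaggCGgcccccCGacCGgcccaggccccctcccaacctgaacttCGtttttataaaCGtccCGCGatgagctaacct
HOXD1, chr2:176188418-176188667, strand plus: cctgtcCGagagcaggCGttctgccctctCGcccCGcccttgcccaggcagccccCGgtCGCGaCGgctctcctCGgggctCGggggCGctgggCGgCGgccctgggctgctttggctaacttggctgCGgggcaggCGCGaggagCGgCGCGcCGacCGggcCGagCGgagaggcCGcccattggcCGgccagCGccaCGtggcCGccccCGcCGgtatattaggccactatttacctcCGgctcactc
HOXA13, which patterns the hand, foot and genital tract, had 40 CG in its 250 bases, more than 97.8% of all promoters in the table. HOXD1 had 31 CG, HOXD13 had 21 and HOXA2, a hindbrain gene, had 8. CG reads the same on both strands, so 1 search covers both. Over the 26 distinct promoters of the genes with an entry the median was 19.5 CG, against 11 over all 34788 distinct promoters. At least 1 CG was found in 96.2% of the former and 93.9% of the latter. By a common rule for CpG-rich DNA, a GC content of at least 50% and an observed to expected CG ratio of at least 0.6, 17 of the 26 passed (65.4%), against 44.9% of all promoters. HOXA13 and HOXA2 thus stood far apart within 1 cluster. In HOXA, where HOXA3 alone supplied 7 of the 16 promoters, 9 passed, while 7 of the 8 HOXD promoters passed.

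All 4 clusters held more listed open regions than most stretches of the genome of the same length. With vehicle, HOXC had 24.2 peaks per 100 kb, HOXA 17.5, HOXD 17.3 and HOXB 15.0. Bins of 120 kb with any peak held a median of 8 vehicle peaks, where HOXC held 29, HOXA 21 and HOXB 18. Counted over those bins, 99.8% had fewer peaks than HOXC, 98.5% fewer than HOXA and 96.1% fewer than HOXB. HOXD, set against bins of its own length of 110 kb, exceeded 98.1% of them with 19 peaks. HOXC thus led in number, and the other clusters lay within 3 peaks of each other.

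The windows directly beside the clusters were mostly sparser. The flanks of HOXA held 8 and 7 vehicle peaks, those of HOXC 9 and 14, and those of HOXD 8 and 2. HOXB was the exception, with 12 peaks in the window before it and 22 in the window after it, more than the 18 in the cluster itself. That later window lies beyond the HOXB9 end. Whether it holds HOXB13, the gene left out here, was not checked, so it may not be neutral surroundings. In all, the 8 flanking windows held 82 vehicle peaks and 73 GSK2879552 peaks.

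**Figure D1:**
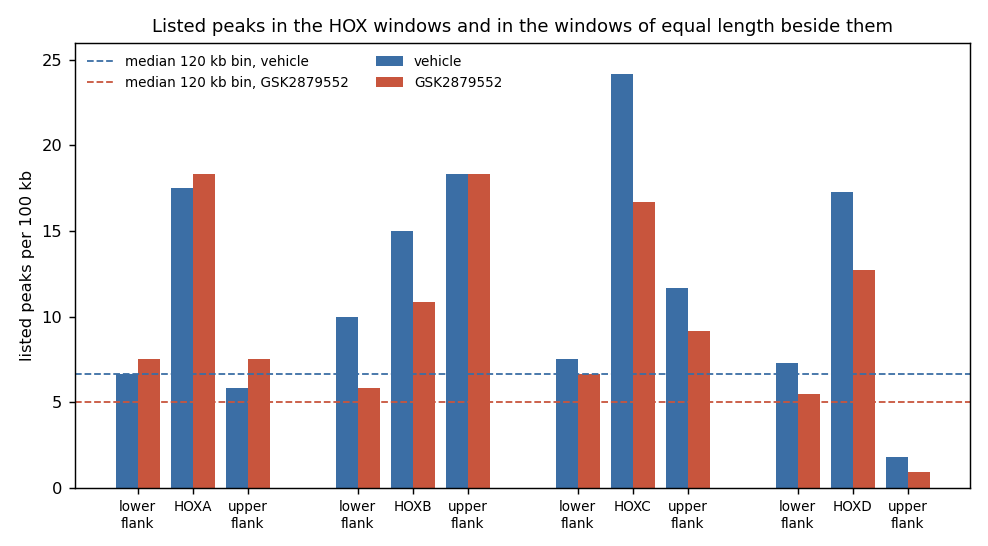
Listed peaks per 100 kb (vertical axis) in each HOX window and in the window of equal length on either side, with vehicle in blue and GSK2879552 in red; dashed lines give the median 120 kb bin with a peak. HOXC with vehicle is the tallest bar at 24.2, and the upper flank of HOXB (18.3 in both lists) is the only flank above its cluster.

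The HOX windows stood out more by the number of their peaks than by the height of the tallest. The highest vehicle summit of HOXD carried 47 tags, where the median bin of its length reached 49, and 47.4% of those bins had a lower highest summit. The corresponding share was 62.6% for HOXB (62 tags), 82.8% for HOXC (85 tags) and 88.1% for HOXA (92 tags). Neighbouring summits within a cluster lay a median of 3.85 kb apart with vehicle, against 8.52 kb outside the windows. HOXC had the closest spacing, 2.90 kb. With GSK2879552 the median was 5.29 kb, against 9.68 kb outside.

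Local background, the tags the caller expected at a summit from the surrounding 10 kb, was higher in the HOX windows than outside. It was above the genome-wide value in 86 of 87 vehicle peaks (98.9%), against 59.7% outside. The median was 5.00 tags, against 2.64 outside. Median summit tags were 32, against 22 outside, while the authors' median fold over background was 4.89, below the 5.44 outside. HOXB differed, with a median fold of 5.93, and so did HOXD, with a median of 23 tags. The 82 vehicle peaks of the flanking windows had a median of 28 tags and a median fold of 4.83. Their local background was lower than in the HOX windows, with a median of 3.12 tags. It was above the genome-wide value in 58 of the 82 (70.7%). The window beyond the HOXB9 end supplied 22 of these peaks, with a median of 48.5 tags. Medians of the other flanks ran from 18 tags to 31, the latter over 2 peaks. HOX peaks had a median width of 219 bp, against 189 bp outside, and 11 of 87 (12.6%) reached 500 bp, against 9.40% outside.

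With GSK2879552 fewer HOX regions were listed. The count was 20.7% lower over the 4 clusters (69 against 87), where it was 15.8% lower outside. HOXC had 20 peaks in place of 29, HOXB 13 in place of 18 and HOXD 14 in place of 19. HOXA did not follow, with 22 peaks with GSK2879552 and 21 with vehicle. Bases covered by peaks were lower in every cluster, from 5632 to 4607 in HOXA, from 5244 to 3421 in HOXB, from 8671 to 6299 in HOXC and from 4772 to 3695 in HOXD. Over all clusters that was 25.9% less, against 24.9% less outside, and HOXB was lowest with 34.8% less. The clusters kept high ranks for peak number in the GSK2879552 list, from 89.0% of bins with fewer peaks for HOXB to 99.3% for HOXA.

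The GSK2879552 library was the deeper one. Its genome-wide background was 2.72 tags, against 2.31 with vehicle, so it held 17.6% more tags if tag length and genome size were set alike. Tags were therefore compared after division by 1.18. Every scaled ratio depends on that single factor.

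**Figure D2:**
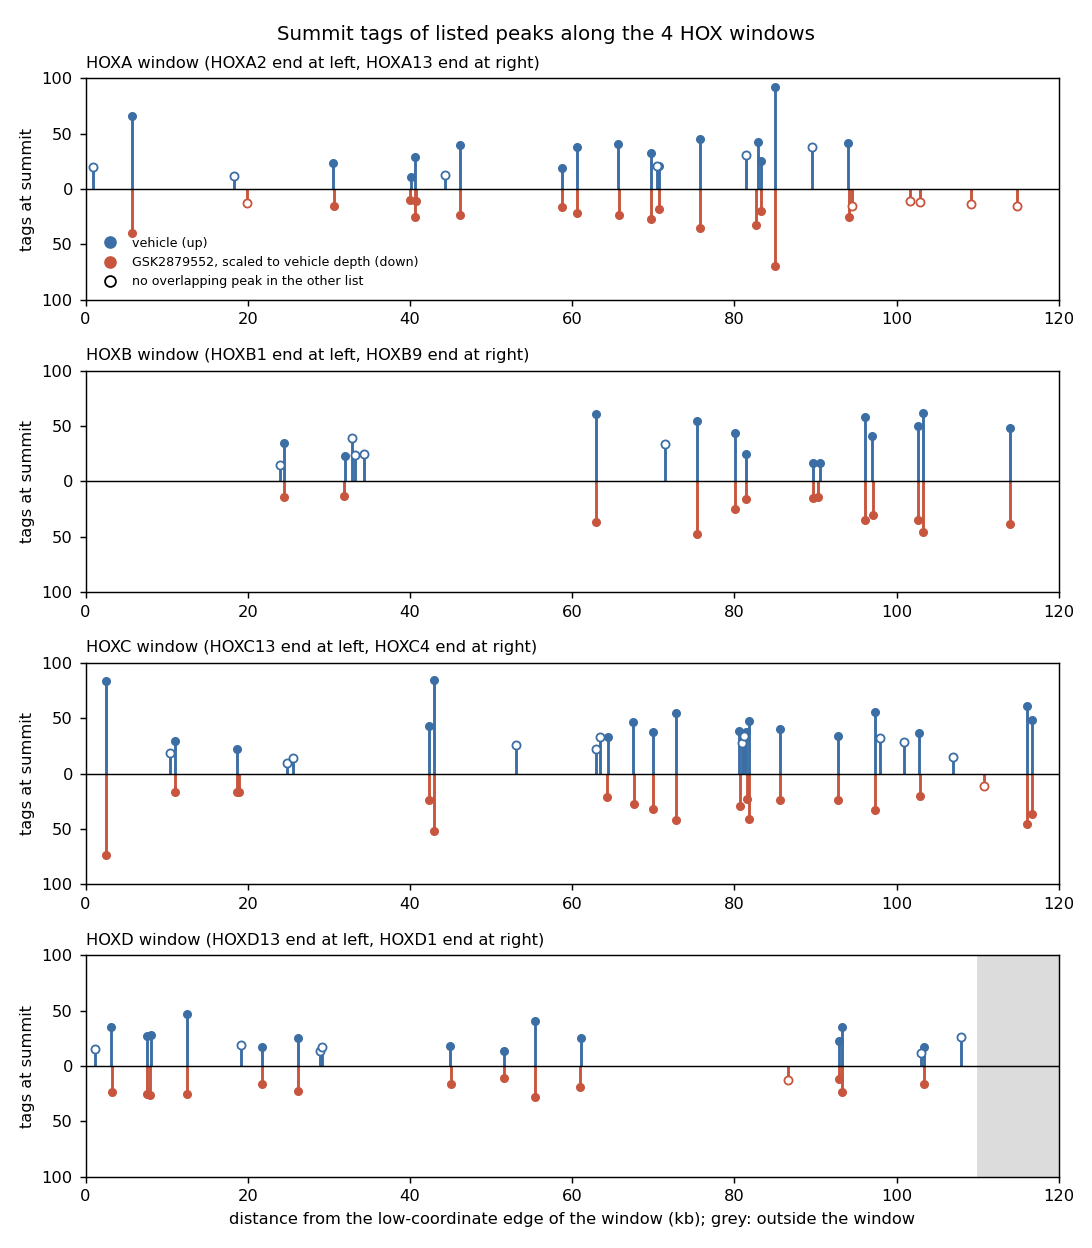
Tags at the summit of every listed peak (vertical axis) against its distance from the low-coordinate edge of its window in kb (horizontal axis), with vehicle upward in blue and GSK2879552, scaled to vehicle depth, downward in red; open circles have no overlapping peak in the other list. HOXB peaks crowd toward the HOXB9 end, and 5 of the 6 open red circles of HOXA lie at its HOXA13 end.

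In HOXA the peaks toward the HOXA13 end were the taller ones. The 60 kb nearer HOXA2 held 9 vehicle peaks with a median of 20 tags, and the 60 kb nearer HOXA13 held 12 with a median of 38. The strongest region, chr7:27214874-27215180, lay on the HOXA13 side, with 92 tags with vehicle (exact Poisson interval 74.2 to 113) and 82 with GSK2879552 (65.2 to 102). Its scaled ratio was 0.758 (0.556 to 1.03), an interval that holds 1. Next in tags was chr7:27135395-27136254 near the HOXA2 end, with 66 tags (51.0 to 84.0) and 47 (34.5 to 62.5). It was also the widest HOXA region, 860 bp with vehicle and 869 bp with GSK2879552, and its ratio of 0.606 (0.408 to 0.894) had an interval below 1. The region chr7:27205617-27205857 carried 45 and 41 tags, a ratio of 0.775 (0.495 to 1.21). So the tallest regions of HOXA were listed in both conditions, and only the HOXA2-side one of these 3 had an interval below 1.

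Among HOXA pairs whose tags summed to at least 60, the ratio was lowest at chr7:27190270-27190698, with 38 and 25 tags and a ratio of 0.560 (0.324 to 0.951). It was highest at chr7:27199601-27199746, with 33 and 32 tags and a ratio of 0.825 (0.491 to 1.38). These regions lie within 10 kb of each other, and their intervals overlap widely.

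At the HOXA13 end the GSK2879552 list held more peaks than the vehicle list. No vehicle peak was listed in the last 25.8 kb of the window, chr7:27224209-27249999, and 5 GSK2879552 peaks were. They carried 13 to 18 tags, and none reached a −log10 q of 5. Brought to vehicle depth these are 11.1 to 15.3 tags, and at a like local background the vehicle list held peaks from 10 tags for 3 of them, from 9 for the peak at chr7:27232750-27232859 and from 13 for that at chr7:27224414-27224513. The 1st percentile of tags among such vehicle peaks was 11 to 15. At chr7:27231580-27231691 the 11.1 scaled tags lay below that percentile, 12. The peaks of 18 tags had more tags than 42.1% of the GSK2879552 list. The vehicle list gives no number for the signal at these places.

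In HOXB the open regions were gathered on the side of HOXB9. The 60 kb nearer HOXB1, a gene of the hindbrain, held 6 vehicle peaks and 2 GSK2879552 peaks, while the 60 kb nearer HOXB9 held 12 and 11. Neither list had a peak in the first 24.0 kb of the window, and a gap of 28.2 kb with vehicle and 30.7 kb with GSK2879552 followed further on. The strongest region, chr17:46703156-46703709, carried 62 tags (47.5 to 79.5) with vehicle and 54 (40.6 to 70.5) with GSK2879552. Its scaled ratio was 0.741 (0.505 to 1.08). The region chr17:46662665-46663021 carried 61 and 43 tags, a ratio of 0.600 (0.396 to 0.900). The third, chr17:46695977-46696235, carried 58 and 41 tags, a ratio of 0.601 (0.393 to 0.912). These 3 were all on the HOXB9 side, and each was already lower with GSK2879552 in unscaled tags.

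Among HOXB pairs of at least 60 tags, the widest region had the highest ratio. It was chr17:46675115-46675828, 714 bp wide with vehicle and 626 bp with GSK2879552, and it carried 55 and 56 tags, a ratio of 0.866 (0.586 to 1.28). The lowest ratio among these pairs was 0.561 (0.338 to 0.916) at chr17:46680025-46680182, with 44 and 29 tags, less than 5 kb away. Over all HOXB pairs, those with fewer tags included, the ratio ran from 0.413 to 0.901.

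A group of vehicle regions on the HOXB1 side had no counterpart. Close together the vehicle list held 3 of them, at chr17:46632690-46632921 with 39 tags (27.7 to 53.3), at chr17:46633149-46633290 with 24 (15.4 to 35.7) and at chr17:46634277-46634421 with 25 (16.2 to 36.9). The nearest GSK2879552 peak ended 697 bp before the first. At such a local background the GSK2879552 list held peaks from 14 tags, where 39 vehicle tags correspond to 45.9 at its depth. On the HOXB9 side, chr17:46671350-46671477 carried 34 vehicle tags with the nearest GSK2879552 peak 3648 bp away. The first region, with 39 tags, was the strongest HOX region listed in 1 condition only. In all, 5 of the 18 vehicle peaks of HOXB (27.8%) had no GSK2879552 peak, against 38.5% of all vehicle peaks.

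HOXC was the densest cluster and held a wide region at its HOXC13 end. That region, chr12:54332069-54333778, was 1710 bp wide with vehicle, a width that 112 of all vehicle peaks reached, and 1593 bp with GSK2879552, which 38 reached. It carried 84 tags (67.0 to 104) and 86 (68.8 to 106), the highest HOXC ratio of pairs with at least 60 tags, 0.871 (0.637 to 1.19). HOXC13, the gene at this end, acts in hair and nail formation. The most tags of HOXC, 85 with vehicle, stood at chr12:54372609-54373095. With GSK2879552 this region met 2 peaks of 61 and 28 tags, and the second of them also met the vehicle region next to it, so no ratio is given. The region chr12:54445889-54446190 near the HOXC4 end carried 61 and 53 tags, a ratio of 0.739 (0.502 to 1.09). Strong HOXC regions thus stood at both ends of the window and were listed in both conditions.

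Most HOXC peaks lay in the 60 kb that end with HOXC4, HOXC5 and HOXC6, the last of these a gene whose transcript serves as a marker of prostate cancer. That side held 20 vehicle peaks and 14 GSK2879552 peaks, and the HOXC13 side held 9 and 6. The lowest ratio of HOXC pairs with at least 60 tags was 0.552 (0.316 to 0.947) at chr12:54432722-54432895, with 37 and 24 tags. HOXC had 11 vehicle regions with no GSK2879552 peak among its 29 (37.9%), where 38.5% of all vehicle peaks had none, and 7 were past a −log10 q of 5. Of the latter, chr12:54411155-54411283 carried 34 tags and lay 123 bp from a GSK2879552 peak, chr12:54393352-54393530 carried 33 and lay 551 bp away, and chr12:54383023-54383191 carried 26 and lay 9960 bp away. The first 2 therefore sat beside regions open in both lists, and the last was isolated.

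HOXD had the lowest vehicle summits of the 4 clusters, with a median of 23 tags. With GSK2879552 the median was 24 tags in HOXD and 22 in HOXA. Its strongest region, chr2:176962392-176962641 toward HOXD13, carried 47 tags (34.5 to 62.5) with vehicle and 30 (20.2 to 42.8) with GSK2879552. The ratio of 0.543 (0.332 to 0.877) was also the lowest of its pairs with at least 60 tags. The region chr2:177005246-177005854 at mid-window carried 41 and 33 tags, the highest ratio of these pairs at 0.685 (0.419 to 1.11). At chr2:176953091-176953286 there were 35 and 28 tags, a ratio of 0.680 (0.399 to 1.15). The widest vehicle region, chr2:176994730-176995341, was 612 bp wide with only 18 tags, and its GSK2879552 partner carried 19. The next widest vehicle region, at 609 bp, was the one with 41 tags.

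HOXD peaks thinned out toward HOXD1. The 55 kb nearer HOXD13 held 12 vehicle and 8 GSK2879552 peaks, and the other 55 kb held 7 and 6. The longest stretch with no vehicle peak in any cluster, 31.6 kb, lay there at chr2:177011161-177042809, and the GSK2879552 list had 1 peak of 15 tags in it. Of the 19 vehicle peaks of HOXD, 6 had no GSK2879552 peak (31.6%), where 38.5% of all vehicle peaks had none. Of these 6, chr2:177057821-177058059 at the HOXD1 edge was the strongest, with 26 tags over the genome-wide background. The nearest GSK2879552 peak lay 4277 bp away. The next by −log10 q were chr2:176979094-176979240 with 17 tags and chr2:176969054-176969156 with 19 tags, both on the HOXD13 side.

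Most HOX regions were listed in both conditions. With 1 bp of overlap counted as shared, 59 of the 87 vehicle peaks (67.8%, exact Clopper-Pearson interval 56.9 to 77.4) were also in the GSK2879552 list, against 61.5% outside. Of the GSK2879552 peaks, 61 of 69 overlapped a vehicle peak, 88.4% (78.4 to 94.9), against 76.4% outside. Vehicle-only regions numbered 28 (32.2%), where 38.5% of all vehicle peaks had no partner. GSK2879552-only regions numbered 8 (11.6%), where 23.5% of all GSK2879552 peaks had none. HOXB had none of these 8, HOXA 6 of its 22 peaks (27.3%), and HOXC and HOXD 1 each. Over the 4 clusters together both shares lay below those of all peaks, HOXA was above in the GSK2879552 list, and the interval of the shared vehicle peaks holds the value outside.

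Regions listed in 1 condition were of middle height with vehicle and lower with GSK2879552. The 28 vehicle-only regions carried 10 to 39 tags with a median of 21.5, close to the 22 of all vehicle peaks outside, and the 8 GSK2879552-only regions 13 to 18 with a median of 15. A −log10 q of at least 5 was reached by 17 vehicle-only regions (18.9% of all vehicle peaks were without a partner and at that level) and by 0 GSK2879552-only regions (2.84% of all GSK2879552 peaks). That level depends on the depth of each list, so these counts are not a like-for-like comparison. The distance to the nearest peak of the other list had a median of 1746.5 bp for the former and 5655 bp for the latter. In HOXA the strongest vehicle-only region, chr7:27219486-27219661, carried 38 tags (26.9 to 52.2), with the nearest GSK2879552 peak 4323 bp away. At its local background the GSK2879552 list held peaks from 18 tags, and 38 vehicle tags correspond to 44.7 at its depth. Also past that level in HOXA were chr7:27211370-27211476 with 31 tags and chr7:27130829-27130989 with 20.

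Some regions were split or joined rather than lost. In all 6 vehicle and 8 GSK2879552 peaks overlapped more than 1 partner or shared one, in HOXA, HOXC and HOXD. At chr7:27170496-27170807 in HOXA, 1 vehicle peak of 29 tags met GSK2879552 peaks of 30 and 13 tags. At chr2:176957475-176957854 and chr2:176957907-176958224 in HOXD, vehicle peaks of 27 and 28 tags met GSK2879552 peaks of 30 and 31 tags. In these places the tallest summits held about as many unscaled tags in both lists. HOXC was mixed. At chr12:54348583-54348933, 1 vehicle peak of 22 tags met GSK2879552 peaks of 19 and 19 tags. The gap was larger at chr12:54372609-54373095, with 85 vehicle tags against 61, and at chr12:54371994-54372494, with 43 against 28. Split and joined regions have no single partner and were left out of all ratios.

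The same regions, paired 1 to 1, carried fewer tags with GSK2879552 in all 4 clusters. There were 53 such pairs, 14 in HOXA, 13 in HOXB, 15 in HOXC and 11 in HOXD. Their summits summed to 2062 tags with vehicle and 1695 with GSK2879552, which is 0.699 after scaling, with an exact binomial interval of 0.655 to 0.746. Outside the windows the ratio was 0.683 (0.682 to 0.684), which the HOX interval holds. By cluster it was 0.698 (0.614 to 0.793) in HOXA, 0.684 (0.601 to 0.778) in HOXB, 0.705 (0.630 to 0.789) in HOXC and 0.716 (0.603 to 0.850) in HOXD. Each of these 4 intervals holds the other 3 values and the value outside.

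**Figure D3:**
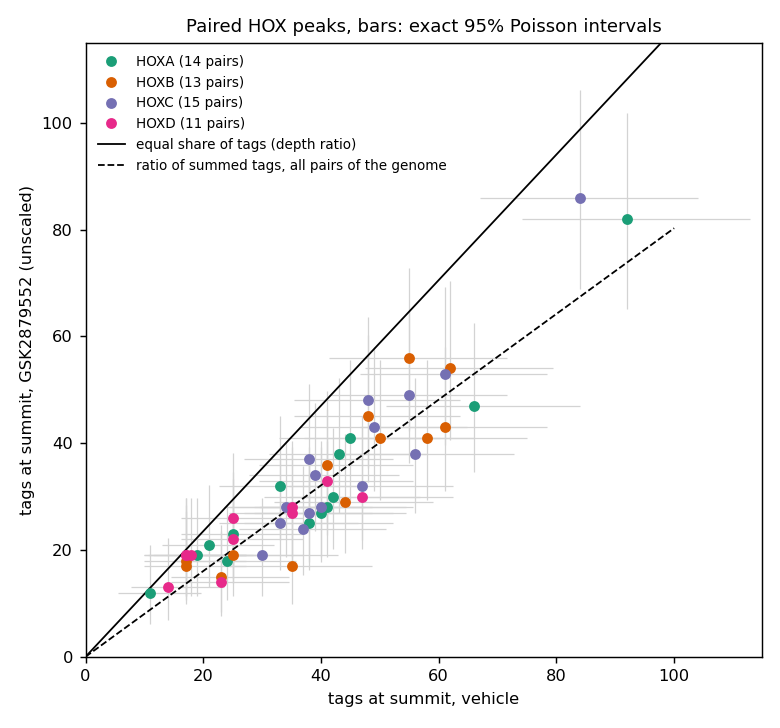
Unscaled tags at the summit of each of the 53 paired HOX peaks with GSK2879552 (vertical axis) against vehicle (horizontal axis), coloured by cluster, with exact 95% Poisson intervals as grey bars. All points lie below the solid line of equal shares of tags, and they scatter around the dashed line, the ratio of summed tags over all pairs of the genome.

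Every HOX pair lay on the same side after scaling, as most pairs of the genome did. The scaled ratio was below 1 in 53 of 53 HOX pairs, where it was below 1 in 94.2% of all pairs. Without scaling, 41 HOX pairs had fewer tags with GSK2879552, 4 had as many and 8 had more, where 83.3% of all pairs had fewer. A ratio of 1/1.5 or less was seen in 22 of 53 (41.5%), where 45.5% of all pairs had one. A ratio of 1.5 or more was seen in none, where 0.172% of all pairs had one. The interval of single pairs lay below 1 in 15 of 53 and held the ratio over all pairs, 0.683, in 53 of 53. How many of all pairs have an interval below 1 was not computed, so the 15 are not read as particular to HOX. No HOX pair could thus be told from the ratio of the whole genome at this depth.

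The median log2 ratio of HOX pairs was -0.44, against -0.56 outside. Among pairs with at least 60 tags it was -0.53 over 34 HOX pairs and -0.56 outside. The medians by cluster were -0.41 in HOXA, -0.52 in HOXB, -0.51 in HOXC and -0.42 in HOXD. The binomial interval of the HOX median, from -0.65 to -0.40, holds the value outside. It reflects the spread between the 53 pairs within 1 library per condition, and is no test of HOX against the genome. The lowest ratio of any HOX pair, chosen after its values were seen, was at chr17:46624229-46624731 on the HOXB1 side, with 35 tags with vehicle and 17 with GSK2879552, 0.413 (0.217 to 0.757).

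**Figure D4:**
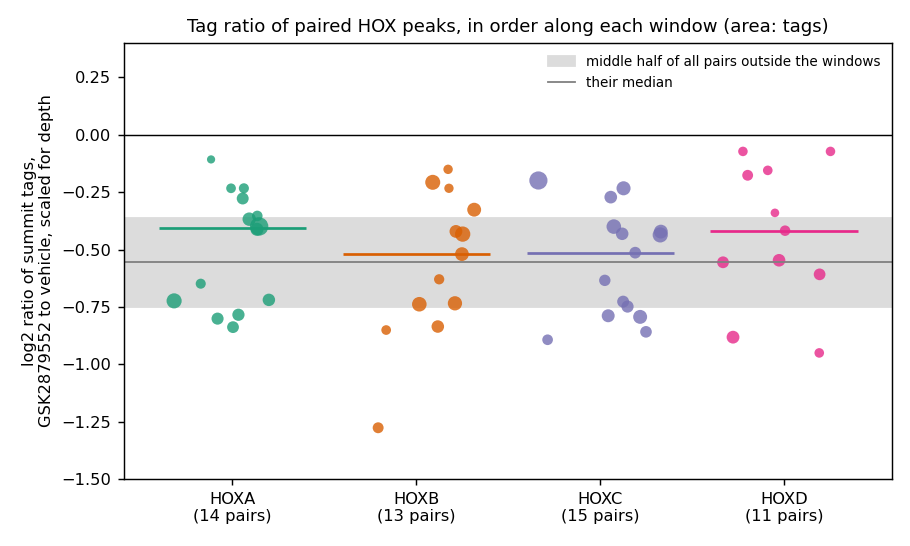
Scaled log2 ratio of summit tags, GSK2879552 to vehicle (vertical axis), for each paired HOX peak, in order along each window from its low-coordinate edge (left to right within a cluster), with the point's area by tags and a coloured line at the cluster's median. The grey band is the interquartile range of all pairs outside the windows around their median of -0.56; all 53 points lie below 0, and the lowest is a HOXB pair on the HOXB1 side.

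Along the clusters the ratio was compared between the sides of a window. The HOXC13 and HOXB1 sides held only 2 pairs each, so overlapping intervals do not show that the sides were alike. In HOXA it was 0.654 (0.513 to 0.832) over 5 pairs on the HOXA2 side and 0.716 (0.615 to 0.833) over 9 on the HOXA13 side. In HOXC it was 0.783 (0.595 to 1.03) over 2 pairs on the HOXC13 side and 0.689 (0.609 to 0.780) over 13 on the HOXC4 side. In HOXD it was 0.736 (0.580 to 0.933) over 6 pairs on the HOXD13 side and 0.694 (0.538 to 0.894) over 5 on the HOXD1 side. In these clusters the intervals of both sides overlapped. HOXB had the widest gap, 0.469 (0.295 to 0.735) over the 2 pairs of the HOXB1 side and 0.710 (0.620 to 0.813) over the 11 of the HOXB9 side. These intervals overlap too, and the side with 2 pairs is the one where 4 of 6 vehicle regions had no partner, against 38.5% of all vehicle peaks.

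The surroundings of the HOX summits differed less between conditions than the summits did. In the 52 pairs with a local background above the genome-wide value in both lists, the scaled ratio of backgrounds had a median of 0.924, against 0.892 outside. It was below 1 in 44 of 52, where 76.4% of all such pairs were. HOXC had the lowest median, 0.831, and was below 1 in all 15 pairs, while HOXD had the highest, 0.959. HOXA and HOXB lay between, at 0.925 and 0.922. Without scaling for depth the median over all HOX pairs was 1.09, so its side of 1 rests on the scaling.

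**Figure D5:**
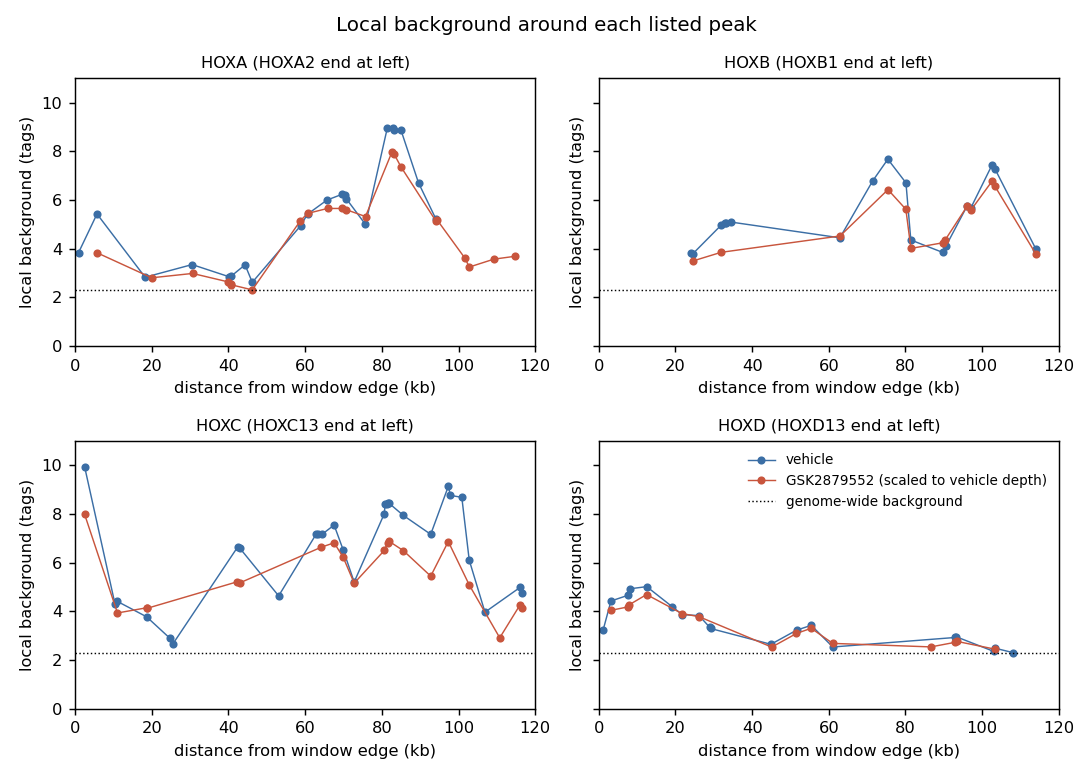
Local background in tags (vertical axis) at each listed peak against its distance from the low-coordinate edge of the window in kb (horizontal axis), with vehicle in blue and GSK2879552, scaled to vehicle depth, in red; the dotted line is the genome-wide background of 2.31 tags. The HOXC lines stand apart most, and in HOXD both lines come down to the genome-wide value toward the HOXD1 end.

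Local background also differed along the clusters. In HOXA its vehicle median was 3.34 tags on the HOXA2 side and 6.22 on the HOXA13 side. In HOXC it was 4.41 on the HOXC13 side and 7.37 on the HOXC4 side. HOXD went from 3.85 on the HOXD13 side to 2.54 on the HOXD1 side, and HOXB from 5.02 on the HOXB1 side to 5.72 on the HOXB9 side. The higher side was that of the high-numbered genes in HOXA, HOXB and HOXD and that of the low-numbered genes in HOXC. In each cluster it was also the side with more vehicle peaks, whose own tags count toward the background.

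Paired HOX regions were mostly narrower with GSK2879552, with summits close to those with vehicle. The GSK2879552 peak was the narrower one in 43 of 53 pairs, where this held for 81.2% of all pairs, and in 13 of 13 pairs of HOXB. Summits of a pair lay a median of 17 bp apart, as outside, and within 50 bp in 42 of 53 (79.2%), against 83.7% outside. In HOXA this held for 9 of 14. The largest distance was 280 bp, at chr7:27212538-27213105 in HOXA, where the vehicle region was 568 bp wide and the GSK2879552 region 478 bp.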

How the data were processed

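ATAC-seq of LNCaP cells was deposited as 1 peak list per condition, to which both lanes of that condition point. The submitters' processing notes name MACS2 2.1.2, SAMtools 0.1.18, BWA 0.7.2 and the build hg19. Duplicate removal, read shifting and tag totals are not stated there. The deposited columns hold, per peak, a score, a fold enrichment at the summit, −log10 p and −log10 q values and the summit offset, all as the authors' peak caller gave them. The score was not used further.

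Tags at each summit and the local background were recovered from the deposited fold and −log10 p. The fold equals tags plus 1 over background plus 1, and p is a Poisson probability. A whole number of tags matched within 0.001 in 100% of rows of both lists, and 100% of 5000 simulated peaks were recovered. Tags of GSK2879552 were divided by the ratio of the genome-wide backgrounds. Comparisons were limited to chromosomes 1 to 22, X and Y, with 1 bp of overlap as shared and mutual single overlaps as pairs. Members and lists were chosen with earlier results of these data known. Regions named were, per cluster, the 3 with the most vehicle tags, the widest of each list, the pairs with the lowest and highest ratio at 60 tags or more, and up to 3 regions in 1 list only with a −log10 q of at least 5, with others where stated or where they complete a group. Alternatives were other overlap rules, thresholds, scalings, window edges and leaving out a cluster. Peak sequences in hg19 were not used here. Computations used SciPy 1.17.1, pandas 2.3.3, NumPy 2.4.6 and Python 3.11.15, and figures Matplotlib 3.10.9.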

Additional observations from a re-analysis of the deposited data

How the results depend on the processing

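Of the 29 recomputed values, 23 kept their direction and stayed within the spread allowed for them, 5 moved and 1 reversed. The share of HOX GSK2879552 peaks that overlapped a vehicle peak, 88.4%, was 73.9% with a reciprocal overlap of 50%. It was 100% of 44 peaks where both lists were held to a −log10 q of 5 or more. These shares were not computed over all peaks. Outside the windows, 4595 of the 101358 GSK2879552 peaks at that level overlapped no vehicle peak of any level. With a −log10 q of at least 5 the HOX GSK2879552 count went from 69 to 44 and the ratio of covered bases from 0.741 to 0.662. The median log2 ratio of paired tags, -0.44, was -0.20 without scaling for depth, and -0.53 to -0.43 with a cluster left out, other window edges or at least 60 tags. The median ratio of local backgrounds, 0.924, was 1.09 without scaling, which reverses its direction. No paired analysis was possible because each condition had 1 library, whose lanes were pooled in the deposited list, and for the same reason no replicate could be left out. Depth limits single regions: the interval of the HOXA pair at chr7:27190270-27190698 ran from 0.324 to 0.951, and the ratios of all HOX pairs lay between 0.413 and 0.951. Sequence of the peaks and their distance to gene starts were not analysed here.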
